A study of Mus musculus with 4 samples.

Results

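Cd48-expressing cells were cells of the Flt3-ITD library that held at least 2 Cd48 UMIs (unique molecular identifiers, each standing for 1 captured mRNA molecule) after every cell had been thinned at random to 3000 UMIs. There were 320 such cells among the 2175 cells kept in that library and the 9727 kept in the series. They were compared with the 1311 cells of the same library that held 0 Cd48 UMIs, and the 544 cells with 1 UMI stood between the groups. Cd48 itself (chromosome 1, 171682009 to 171705258, mm10) chose the cells and was left out of every comparison.

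CD48 is a small surface protein of the SLAM family, anchored in the membrane by a lipid, and its receptor on other blood cells is CD244. In mouse bone marrow its surface level is used to tell long-term hematopoietic stem cells, which lack it, from multipotent and lineage-restricted progenitors, which carry it. The values here are mRNA, so the surface protein of these cells was not measured. Progenitors below the stem cell also gain CD34 and FLT3, lose EPCR (Procr), and begin to express genes of the myeloid and lymphoid lineages at low levels.

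The series held 4 libraries, 1 per genotype. In each, long-term hematopoietic stem cells (LT-HSCs) of C57BL/6 mice, 8 to 11 weeks old, were sorted out of bone marrow and taken straight to the 10x 3' v2 system. The genotypes were MxCRE (the control, called Mx), NPMc+, Flt3-ITD, and NPMc+ together with Flt3-ITD. Mx-Cre is driven by a promoter that interferon induces, so it is not limited to stem cells. NPMc+ is a mutant nucleophosmin held in the cytoplasm and Flt3-ITD an internal tandem duplication that activates the FLT3 receptor. Both occur in acute myeloid leukemia. The labels give neither the antibodies of the sort nor the number or sex of the animals, and for the Flt3-ITD sample they do not say whether Cre was present. With 1 library per genotype, cells were not replicates and no test between groups was possible. Intervals in parentheses are exact 95% intervals and cover counting error only.

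By the same rule, 34 of 2311 Mx cells (1.47%, 1.02 to 2.05), 157 of 2250 NPMc+ cells (6.98%, 5.96 to 8.11), 320 of 2175 Flt3-ITD cells (14.7%, 13.2 to 16.3) and 1468 of 2991 NPMc+/Flt3-ITD cells (49.1%, 47.3 to 50.9) held at least 2 Cd48 UMIs. The Flt3-ITD cells thus lay between the NPMc+ and the double mutant cells. Within the Flt3-ITD library, 220 cells held exactly 2 UMIs, 66 held 3 and 34 held 4 or more, with 6 the most in any cell. The cells just inside the threshold thus had 2 UMIs, or 667 CPM (UMI counts scaled to a common total), and those just outside had 1, or 333 CPM. A count of 0 at this depth does not mean that a cell lacked the transcript: in all UMIs of the 1311 comparison cells, Cd48 stood at 92.8 CPM.

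**Figure D1:**
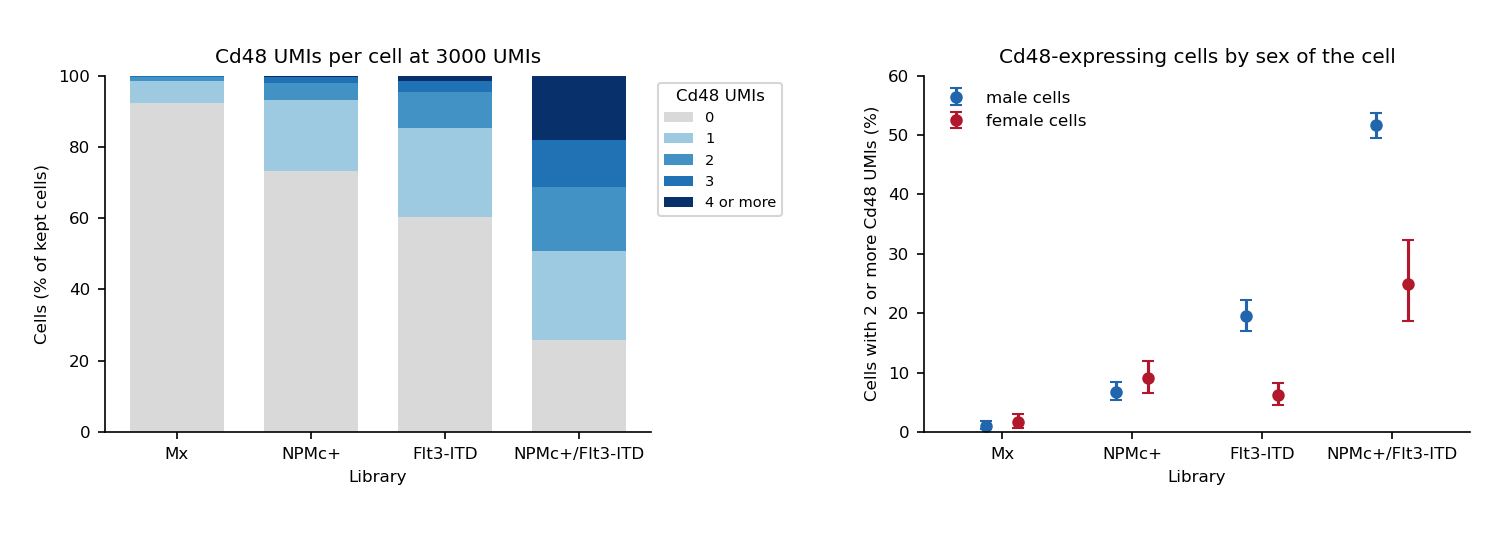
Left, kept cells of each library by Cd48 UMIs per cell at 3000 UMIs (stacked bars, percent of kept cells). Right, percent of male and of female cells with 2 or more Cd48 UMIs, with exact 95% intervals; in Flt3-ITD the male value is 19.5% and the female value 6.24%.

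The Flt3-ITD library pooled cells of both sexes, and these did not hold Cd48-expressing cells equally. A cell was called male from UMIs of Ddx3y, Eif2s3y, Kdm5d or Uty without Xist, and female from the reverse. Of 924 male cells, 180 were Cd48-expressing (19.5%, 17.0 to 22.2), against 44 of 705 female cells (6.24%, 4.57 to 8.29). Male cells therefore made up 56.2% of the Cd48-expressing cells but 35.7% of the 0-UMI cells, and female cells 13.8% against 40.7%. In NPMc+/Flt3-ITD the shares were 51.6% of male and 25% of female cells, in NPMc+ 6.73% and 9.07%, and in Mx 1.04% and 1.65%. Male and female cells come from different animals, so sex cannot be told apart from animal. For this reason the ratios below are given with their values in male cells for most genes, and in female cells for some, where 44 Cd48-expressing cells limit the precision. UMIs of both sexes, which a droplet with more than 1 cell or free RNA can give, were present in 11.6% of the Cd48-expressing and 10.2% of the 0-UMI cells.

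Before thinning, the Cd48-expressing cells held a median of 10240 UMIs against 8701 in the 0-UMI cells, and 7.81% against 3.74% of them lay above the 95th percentile of depth. Without the 5% of cells with most UMIs, 20 genes were higher and 17 lower in the comparison below, against 16 and 21 with them. After thinning, the median number of genes detected was 1450 against 1454, and the median mitochondrial share 0.695% against 0.674%. The 502 Flt3-ITD barcodes that missed a filter were left out. Libraries shared 160 barcode sequences over all pairs, and 9 Cd48-expressing cells of Flt3-ITD carried a barcode also present in another library.

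Across the 1618 genes with at least 100 CPM in either group, the Cd48-expressing cells stood close to the 0-UMI cells. The median log2 ratio was 0.05, and the 5th and 95th percentiles were -0.32 and 0.36. A ratio of 1.5 or more was found for 16 genes (0.989%), and 21 genes (1.30%) were lower by the same fold. These counts depend in part on the floor, which a gene could meet through 1 group alone. Mpo, Bin1, Fabp5 and Mcm2, among others, met it only in the Cd48-expressing cells. Trim47, Ldhb, Tbxas1 and Uba7, among others, met it only in the 0-UMI cells. At 2-fold, 2 genes were higher (0.124%), Mpo and Ccl5, and 5 lower (0.309%), S100a8, Igha, Trim47 and Xist among them. In male cells alone, 22 of 1648 genes were higher (1.33%) and 16 lower (0.971%). A ratio pooled over the male and the female stratum, added after the data had been seen, gave 15 higher (0.927%) and 21 lower (1.30%). Of the 16 higher genes, 7 stayed past 1.5-fold in male cells and 10 in the pooled strata. Of the 21 lower genes, 9 and 13 did. In 2 new random draws of the thinning, 12 and 11 of the higher genes stayed past 1.5-fold, with Cdk6, Akr1c13 and Rpn1 lost in both, and 16 and 17 of the lower ones. Against cells with 0 or 1 Cd48 UMI, 8 of the 16 higher genes fell short of 1.5-fold: Cdk6, H2afy, Cd34, Akr1c13, Plac8, Serpinb1a, Rpn1 and Cd69. In male cells all 16 higher genes and 20 of the 21 lower ones kept their side of 1. The exception was Xist, which a male cell by definition lacks. Some of the genes that kept their side had male intervals that included 1. Among them were Ccl5 (1.01), Bin1 (1.13), Cd69 (1.095), S100a8 (0.867) and Igha (0.946). In female cells 188 genes (11.0%) were higher and 122 (7.12%) lower, with only 44 Cd48-expressing cells behind them.

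Mpo had the highest ratio of the genes past 1.5-fold apart from Ccl5. It encodes myeloperoxidase, an enzyme of the primary granules made from the earliest granulocyte and monocyte progenitors onward (chromosome 11, 87793581 to 87804413, mm10). It stood at 103 CPM in the Cd48-expressing cells and 25.9 CPM in the 0-UMI cells, a ratio of 3.98 (2.99 to 5.30). In male cells the ratio was 4.16 and in female cells 4.66. At least 1 Mpo UMI was found in 65 of 320 Cd48-expressing cells (20.3%) and 82 of 1311 others (6.25%), and no cell held more than 8. In all UMIs of the same cells the shares were 40% and 16.2%. No cell type that should lack these transcripts was numerous enough to give a background for shares of cells with a UMI. Mpo was therefore spread over many cells at low counts. Most Cd48-expressing cells, at this depth, had none.

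Plac8, a small cysteine-rich protein of myeloid and lymphoid progenitors (chromosome 5, 100553725 to 100572245, mm10), stood at 1470 against 919.9 CPM, a ratio of 1.598 (1.502 to 1.70). The ratio was 1.5 in male and 1.75 in female cells. Nkg7, which encodes a membrane protein of cytotoxic granules that myeloid progenitors also express, stood at 398 against 204 CPM, a ratio of 1.95 (1.73 to 2.21). It was 1.53 in male and 2.16 in female cells. Nkg7 also belongs to the list of 10 T or NK cell markers, which summed to 556 against 240 CPM (240.5), with Klrb1c at 0 in the Cd48-expressing cells. Nkg7 itself gave 382 of the 533 UMIs of this list in the Cd48-expressing cells and 801 of the 946 in the 0-UMI cells. Without the top cell of each group the sums were 413 against 229.5 CPM. Without the cells rich in markers of other lineages described below, the Nkg7 ratio was 1.74. Serpinb1a, an inhibitor of neutrophil granule proteases, stood at 287 against 178 CPM and was 1.61-fold higher (1.40 to 1.85), or 1.46-fold in male cells.

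Granule genes differed among themselves. Ctsg, the granule protease cathepsin G, lay below the floor of 100 CPM but stood at 64.6 against 16.8 CPM, a ratio of 3.85 (2.68 to 5.53), or 4.16 in male cells. Prtn3, proteinase 3, had a ratio of 1.001 (0.905 to 1.11), or 1.065 (0.915 to 1.24) in male and 1.26 (1.02 to 1.56) in female cells. Elane, neutrophil elastase, had 5 UMIs in all Cd48-expressing cells and 16 in all 0-UMI cells. Ms4a3, another gene of granule-forming progenitors, had a ratio of 1.124 (0.616 to 1.95). Over the whole granulocyte and monocyte list, 9 of 27 genes reached the floor, 3 were at least 1.5-fold higher (Mpo, Nkg7 and Plac8) and 0 lower, and the median log2 ratio was 0.20 against 0.05 for all genes. In male cells the list median was 0.17, and without cells with UMIs of mitotic genes 0.10.

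Cd34 (chromosome 1, 194938819 to 194961279, mm10), a surface sialomucin that mouse LT-HSCs largely lack and progenitors carry, stood at 452 against 287 CPM, a ratio of 1.58 (1.41 to 1.76). The ratio was 1.65 in male and 1.42 in female cells. A Cd34 UMI was found in 224 of the 320 Cd48-expressing cells (70%) and in 695 of the 1311 0-UMI cells, and in all UMIs of the cells in 93.4% and 81.8%. Flt3, the receptor whose gene carries the mutation, stood at 41.7 against 27.2 CPM, below the floor, with a ratio of 1.53 (1.04 to 2.22), and in male cells the interval of 0.836 to 2.49 included 1. Cd27, a tumor necrosis factor receptor family member of multipotent progenitors, did not differ beyond counting error at 157 against 164 CPM (ratio 0.960, 0.799 to 1.15, and 1.05 in male cells).

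Dntt, the terminal transferase of early lymphoid cells, was rare but found in a larger share of the Cd48-expressing cells. It was found in 31 of 320 of them (9.69%, 6.68 to 13.5) and in 26 of 1311 0-UMI cells (1.98%, 1.30 to 2.89), and stood at 42.7 against 7.63 CPM. In male cells the shares were 10.6% and 2.56%, and in female cells 9.09% and 1.31%. In all UMIs of the cells they were 20.9% and 4.42%. Dntt lay outside the rule for named genes and was chosen after its values were seen. Of 28 genes in the multipotent and lymphoid list, 9 reached the floor, and only Cd34 was at least 1.5-fold higher. Ltb, lymphotoxin beta, was at least 1.5-fold lower (ratio 0.667, 0.547 to 0.806), and the list median was -0.06. Tcf3, the E protein transcription factor of lymphoid development, had a ratio of 1.43 (1.13 to 1.79), and of 2.16 in male cells but 1.02 in female cells. In another random draw of the thinning it was 0.953.

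Myeloid and lymphoid transcripts were sometimes found in the same cell. Mpo and Dntt UMIs occurred together in 8 Cd48-expressing cells (2.5%, 1.08 to 4.87) and in 2 of the 1311 0-UMI cells (0.153%), and in all UMIs in 35 and 18 cells. Taking either gene, 88 Cd48-expressing cells (27.5%) had a UMI of Mpo or Dntt, against 106 of the 0-UMI cells (8.09%). Of those 88 cells 54, and of those 106 cells 78, also had a UMI of an HSC marker (a list of 10 genes with Procr, Hlf, Mecom, Slamf1, Ly6a, Fgd5, Hoxb5, Ctnnal1 and Robo4 among them).

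**Figure D2:**
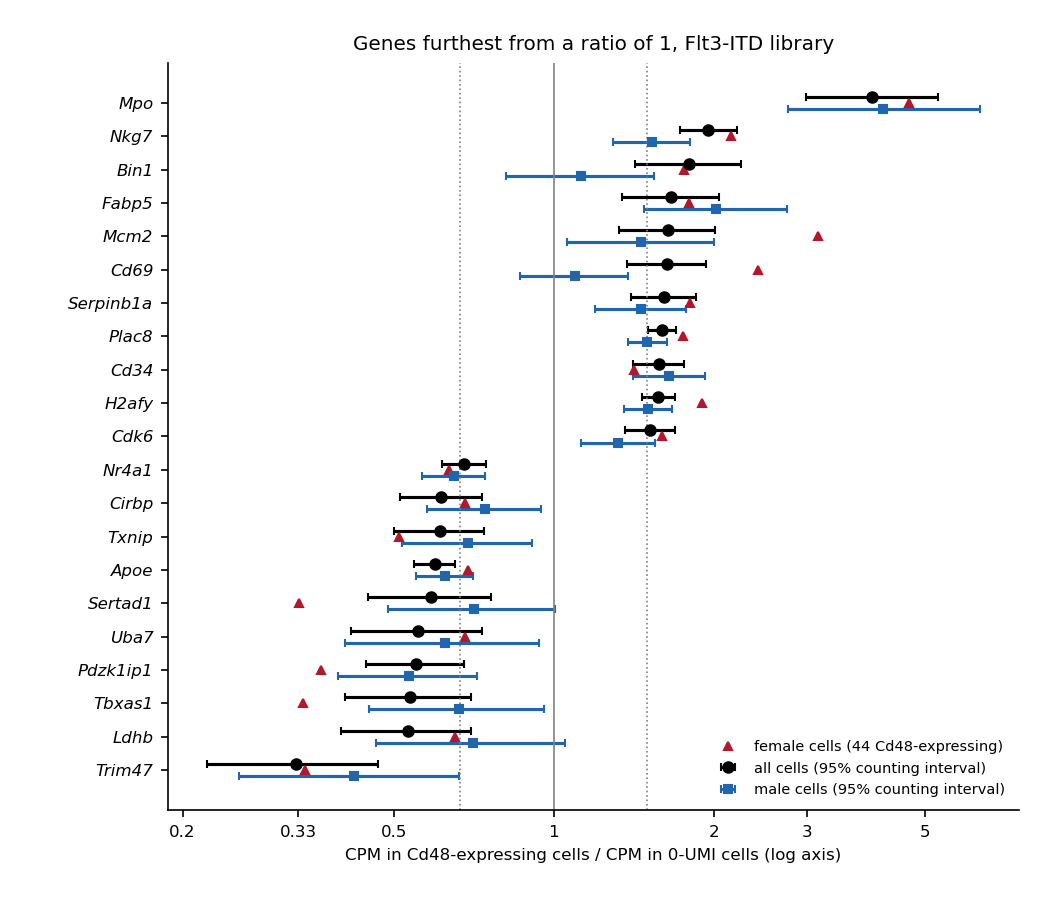
Ratio of CPM in Cd48-expressing cells to CPM in 0-UMI cells of the Flt3-ITD library (log axis) for genes among the highest and lowest named ones, without Ccl5 and S100a8, for all cells (black), male cells (blue) and female cells (red), with exact 95% counting intervals for all and for male cells. Mpo lies furthest to the right at 3.98 and Trim47 furthest to the left at 0.327; Bin1 and Cd69 approach 1 in male cells.

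Stem cell genes lay on the other side. Trim47, a gene of the LT-HSC list that encodes a RING-finger protein of the TRIM family (chromosome 11, 116105752 to 116127210, mm10), stood at 34.4 CPM in the Cd48-expressing cells and 105 CPM in the 0-UMI cells. This ratio of 0.327 (0.222 to 0.466) was the lowest of the genes at the floor apart from S100a8 and Igha, and it was 0.421 in male and 0.340 in female cells. Apoe, apolipoprotein E (chromosome 7, 19696109 to 19699188, mm10), stood at 595 against 996 CPM, a ratio of 0.597 (0.546 to 0.652), or 0.623 in male and 0.689 in female cells. Of 39 genes of the LT-HSC list found in the table, 11 reached the floor, 3 were at least 1.5-fold lower, Trim47 and Apoe among them, and 0 higher. The list median was -0.30, or -0.23 in male and -0.51 in female cells.

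Mecom and Procr, which also define LT-HSCs, lay below the floor but had UMIs enough for an interval. Mecom, which encodes the transcription factor EVI1, stood at 43.8 against 82.4 CPM (0.532, 0.376 to 0.735). Procr, which encodes EPCR, stood at 37.5 against 63.8 CPM (0.588, 0.403 to 0.836). Their ratios in male cells were 0.623 and 0.627. The upper bound for Procr in male cells was 1.03, so that difference was not detectable there. Hlf, a leucine zipper factor of HSCs, reached the floor, at 159 CPM in the 0-UMI cells. It had a smaller difference (ratio 0.746, 0.605 to 0.911), and its male ratio was 0.851, with an interval that included 1. Kit, the stem cell factor receptor, also reached the floor and had a ratio of 0.680 (0.526 to 0.870), or 0.692 in male cells. Vwf, a marker of platelet-biased HSCs, had 7 and 37 UMIs, too few to tell the groups apart (ratio 0.776, 0.292 to 1.76).

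Summed over the 10 HSC markers, the Cd48-expressing cells held 356 CPM and the 0-UMI cells 561 CPM, a ratio of 0.636 (0.566 to 0.713). It was 0.739 in male cells (0.627 to 0.867) and 0.582 in female cells. The 7 markers of multipotent or lymphoid-primed progenitors (Cd34, Flt3, Cd27, Dntt, Satb1, Notch1 and Il7r) summed to 716 against 499 CPM, a ratio of 1.43 (1.31 to 1.56), with Il7r at 0 UMIs in the Cd48-expressing cells. In male cells that ratio was 1.52 and in female cells 1.33. Cd34 alone gave 452 of the 716 CPM and 287 of the 499 CPM, so the sums largely follow this gene. UMIs of both lists often occurred in 1 cell. Of the Cd48-expressing cells, 163 (50.9%) had UMIs of both marker lists, 108 (33.8%) of the progenitor list only, 30 (9.38%) of the HSC list only and 19 of neither. Among the 0-UMI cells the shares for both, progenitor only and HSC only were 55%, 17.2% and 19.7%.

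Read from the other direction, the share of cells that were Cd48-expressing was lower in cells with more HSC marker UMIs. In all cells it was 19.6% (16.6 to 22.9) of 648 cells with 0 HSC marker UMIs, 15.4% of those with 1, 13.3% of those with 2 and 7.87% (5.54 to 10.8) of the 445 cells with 3 or more. With progenitor marker UMIs it was 10.6% of 1173 cells with 0 or 1, 18.5% of those with 2 or 3 and 22.5% (17.7 to 27.8) of the 276 cells with 4 or more. In male cells the order by HSC marker UMIs was not kept, at 23.97% (19.4 to 29.1), 16.8%, 20.1% and 14.3% (9.17 to 20.8), with intervals of the first and last bands that overlap. By progenitor marker UMIs the male shares were 12.7%, 24.7% and 29.1%. Cells with UMIs of both Procr and Hlf made up 5.62% (3.37 to 8.74) of the Cd48-expressing cells and 7.63% (6.25 to 9.20) of the 0-UMI cells, intervals that overlap.

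The other genes that were at least 1.5-fold lower had varied roles. Pdzk1ip1, a small membrane protein (chromosome 4, 115088708 to 115093899, mm10), stood at 105 against 191 CPM (0.551, 0.443 to 0.679), and its ratio was 0.534 in male and 0.365 in female cells. Tbxas1, thromboxane synthase, had a ratio of 0.535, and Ldhb, a lactate dehydrogenase subunit, 0.532. In male cells they were 0.664 and 0.706, and the interval for Ldhb then reached 1.05. Uba7, the enzyme that activates the ubiquitin-like protein ISG15, had a ratio of 0.556, Sertad1, a transcriptional co-regulator, 0.588, and Cirbp, a cold-inducible RNA-binding protein, 0.614. In male cells these were 0.624, 0.707 and 0.744, so Sertad1 and Cirbp no longer passed 1.5-fold there. Pik3ip1, an inhibitor of PI3 kinase, had 0.621, and Lst1 0.646, or 0.576 and 0.580 in male cells.

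Quiescence genes were lower, mainly Txnip and the NR4A factors. Txnip, the thioredoxin-interacting protein, stood at 126 against 207 CPM (ratio 0.610, 0.4999 to 0.740), or 0.690 in male and 0.511 in female cells. Nr4a1, an orphan nuclear receptor and immediate-early gene that restrains HSC proliferation (chromosome 15, 101254269 to 101274795, mm10), stood at 522 against 769.6 CPM. Its ratio of 0.679 (0.616 to 0.746) lay just short of 1.5-fold lower, and it was 0.648 in male and 0.636 in female cells. Nr4a2 had a ratio of 0.714 and Klf4, a Krüppel-like factor, 0.737, or 0.718 and 0.681 in male cells. Cdkn1c, the cell cycle inhibitor p57, stood at 15.6 against 33.1 CPM (0.473, 0.257 to 0.809), below the floor and from only 15 UMIs in the Cd48-expressing cells, and its male interval included 1. Of 34 quiescence genes 14 reached the floor, 2 were at least 1.5-fold lower, Txnip among them, and 0 higher. The list median was -0.22, or -0.29 in male and -0.24 in female cells.

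Immediate-early genes as a class lay near 1 or slightly below it. Of 30 such genes 24 reached the floor, Socs3, a feedback inhibitor of cytokine signalling, was lower (ratio 0.643, 0.517 to 0.792) and Cd69, the early activation antigen, higher (1.63, 1.37 to 1.93). The list median was -0.05, or -0.10 in male and -0.25 in female cells. Of the 24 genes, 7 had an interval above 1 and 10 an interval below 1. The summed list had a ratio of 0.906 (0.889 to 0.924) in male cells and 0.891 (0.856 to 0.926) in female cells. Klf2, a Krüppel-like factor of quiescent blood cells, had a ratio of 1.09 (1.03 to 1.15), Fos one of 1.02 and Atf3 one of 1.09, and in male cells these were 0.986, 0.967 and 0.946. The Cd69 ratio was 1.095 (0.864 to 1.38) in male cells and was 2.43 in female cells, and that of Socs3 was 0.796 (0.584 to 1.07) in male cells.

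Genes of entry into the cell cycle and of DNA replication leaned higher. Cdk6, the kinase that drives exit from quiescence in early G1, stood at 463 against 305 CPM (ratio 1.52, 1.36 to 1.69), or 1.32 in male and 1.60 in female cells. Its partner cyclin Ccnd2 was below 1 (0.727, 0.619 to 0.851). Mcm2, a subunit of the replicative helicase, stood at 134 against 82.1 CPM (1.64, 1.32 to 2.01), or 1.46 in male cells. Mcm7, Mcm5, Mcm6 and Mcm3, of the same complex, had ratios of 1.36, 1.31, 1.28 and 1.22. In male cells these were 1.28, 1.18, 1.09 and 1.02, with intervals that included 1. The Cdk6 ratio was below 1.5 in both further draws of the thinning and in all UMIs of the cells, and that of Mcm2 in 1 draw and in all UMIs. Of 50 G1/S and S phase genes, 10 reached the floor, 9 were above 1 and Mcm2 alone was at least 1.5-fold higher. The list median was 0.27, or 0.23 in male cells, 0.69 in female cells and 0.32 without cells that held 2 or more UMIs of 20 mitotic genes.

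Genes of mitosis showed little in all cells together, but the sexes differed. Of 61 G2/M genes 14 reached the floor and 0 passed 1.5-fold. The list median of 0.12 became -0.05 in male and 0.21 in female cells. The summed list had a ratio of 0.953 (0.917 to 0.990) in male cells and 1.27 (1.19 to 1.35) in female cells. With 44 Cd48-expressing female cells, 3 of 14 measured genes were at least 1.5-fold higher there. Mki67, a proliferation marker, stood at 25.02 against 23.7 CPM (ratio 1.06, 0.646 to 1.67). At least 13 G1/S UMIs were found in 103 Cd48-expressing cells (32.2%, 27.1 to 37.6) and in 275 of the 1311 0-UMI cells (18.8 to 23.3%). At least 2 UMIs of the mitotic genes were found in 24.7% (20.1 to 29.8) and 18.6% (16.5 to 20.8). In male cells the shares were 23.3% (17.4 to 30.2) and 18.8% (15.4 to 22.6). In female cells they were 29.55% (16.8 to 45.2) and 17.8% (14.7 to 21.3). The intervals overlapped within each sex.

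Socs2, a target and feedback inhibitor of STAT5 signalling, stood at 334 against 224 CPM, a ratio of 1.49 (1.31 to 1.69) that lay just short of 1.5-fold. It was 1.40 in male and 1.55 in female cells. The other measured members of the cytokine feedback list stayed between 0.873 (Dusp2, a MAP kinase phosphatase) and 1.119 (Pim1, a STAT5-induced kinase), apart from Socs3. The NF-kB and inflammation list had a median of 0.32 with 1 of 8 measured genes at least 1.5-fold higher (Cd69). Nfkbia, the inhibitor that NF-kB induces, had a ratio of 1.34 (1.21 to 1.47), or 1.16 in male cells. In male cells the list median was 0.15 and in female cells 0.66.

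Of the other genes that were higher, H2afy, the histone variant macroH2A1, stood at 1115 against 709 CPM (ratio 1.57, 1.46 to 1.69), and was 1.504 in male and 1.90 in female cells. Fabp5, a fatty acid-binding protein, stood at 133 against 80.3 CPM (1.66, 1.34 to 2.05), or 2.02 in male and 1.80 in female cells. Bin1, a membrane-bending protein, had a ratio of 1.80 (1.42 to 2.26), but 1.13 (0.813 to 1.54) in male cells. Lat2, an adaptor of immune receptors, had a ratio of 1.63, Rpn1, a subunit of the oligosaccharyltransferase, 1.61 and Akr1c13, an aldo-keto reductase, 1.596. In male cells these were 1.54, 1.48 and 1.69, and in female cells 1.08, 2.28 and 1.05.

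Genes of growth and respiration stayed within 1.5-fold. Of all 1618 genes 59.7% were above 1, and 16.5% had an interval above 1. Of 56 oxidative phosphorylation genes at the floor, 45 (80.4%) were above 1, 15 had an interval above 1 and 0 passed 1.5-fold, with a median of 0.14 and Cox5a, a subunit of cytochrome oxidase, at 1.33 (1.17 to 1.501). Of 27 ribosome biogenesis and MYC genes at the floor, 24 (88.9%) were above 1, 9 had an interval above 1 and 0 passed 1.5-fold, with a median of 0.12. The 81 ribosomal protein genes at the floor had a median of 0.01. Npm1, the normal or mutant nucleophosmin transcript that the table does not separate, stood at 1761 against 1587 CPM (ratio 1.11, 1.05 to 1.17), and in male cells the interval included 1. Hoxa9, a leukemia-associated homeobox gene, had 1.06 (0.823 to 1.36) and its partner Meis1 0.812 (0.686 to 0.958). Interferon-stimulated genes and the MHC class I list had medians of 0.04 and 0.02, and 0 of their 9 and 19 measured genes passed 1.5-fold.

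**Figure D3:**
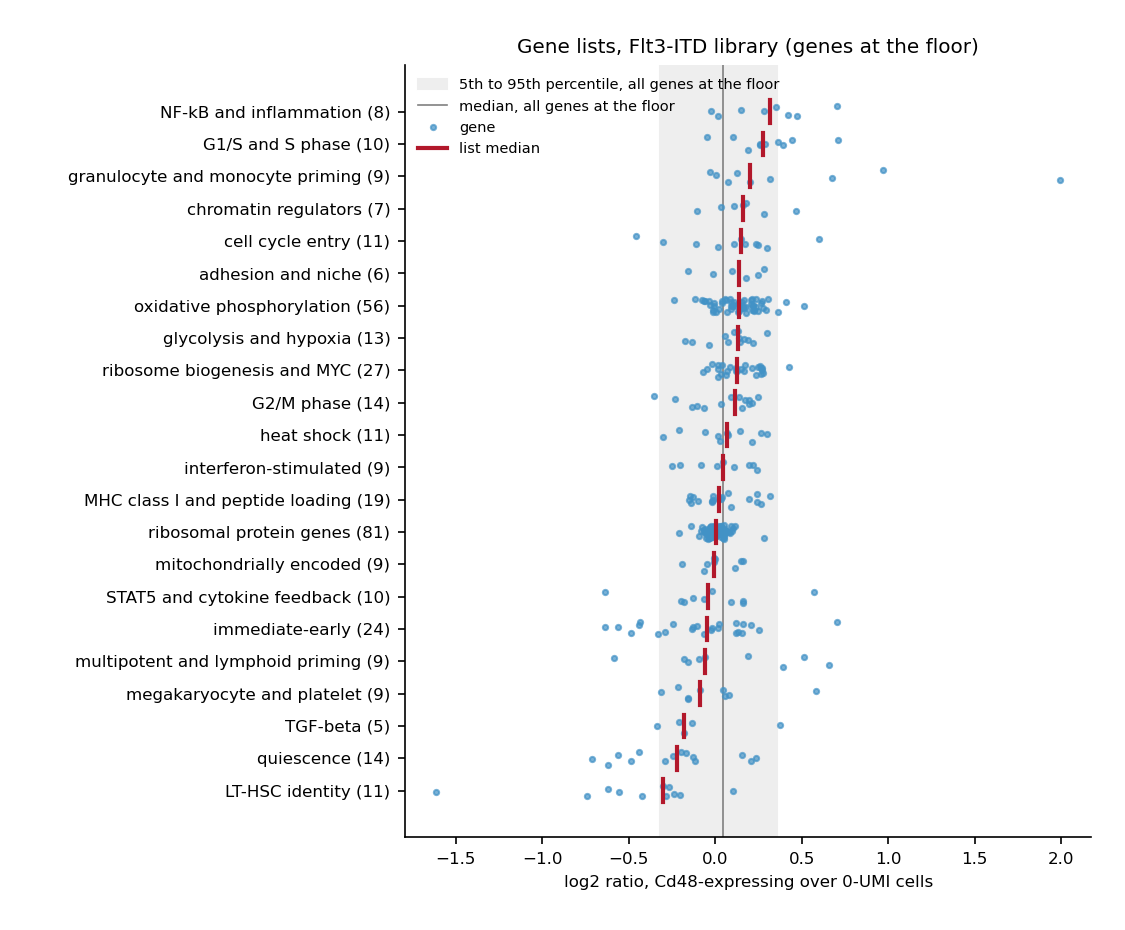
Log2 ratio of CPM in Cd48-expressing to 0-UMI cells for each gene at the 100 CPM floor (points), for gene lists with at least 5 such genes, whose number is in brackets. Red bars are list medians, the grey band spans the 5th to 95th percentile of all 1618 genes and the grey line their median; LT-HSC identity lies lowest (-0.30) and NF-kB and inflammation highest (0.32).

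Within the SLAM family, Cd244, which encodes the receptor for CD48, had 15 UMIs in the Cd48-expressing cells and 28 in the more numerous 0-UMI cells, a ratio of 2.20 (1.09 to 4.26). Slamf1, which encodes the HSC marker CD150, had 7 and 67 UMIs, a ratio of 0.428 (0.166 to 0.932). In male cells these ratios were 2.97 (0.942 to 9.63) and 0.520 (0.156 to 1.38), so neither difference was detectable there. Ly9 (1.22, 0.621 to 2.26) and Cd84 (1.08, 0.759 to 1.51) did not differ beyond counting error. None of the family's measured genes reached 100 CPM.

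A few cells of other lineages set some of the largest ratios. Ccl5, a chemokine of T and NK cells, stood at 116 against 15.0 CPM, a ratio of 7.71, but a single Cd48-expressing cell held 102 of its 111 UMIs and 138 UMIs of the 10 T or NK markers. In male cells the Ccl5 ratio was 1.01. S100a8, a neutrophil protein, had 1 UMI in the Cd48-expressing cells and 550 in the 0-UMI cells, 534 of them in 1 cell, and Igha, an antibody heavy chain of plasma cells, had 20 and 1240, with 1173 in 1 cell. Without cells that held 5 or more UMIs of another lineage's markers (20 Cd48-expressing and 46 0-UMI cells), 18 genes were higher and 16 lower, and the ratio of Ccl5 was 1.53 and that of Mpo 4.22. Markers of granule-forming progenitors summed to 698 against 569.5 CPM, of monocytes or dendritic cells to 511 against 477 CPM and of megakaryocytes to 354 against 486 CPM. Those of B cells summed to 60.5 against 115 CPM, but 1 of the 0-UMI cells held 257 of their 451 UMIs, and without the top cell of each group the sums were 58.6 against 49.4 CPM, with Ms4a1, Pax5 and Vpreb3 among those at 0 in the Cd48-expressing cells. Those of mature granulocytes summed to 11.5 against 316 CPM, of which 1 cell held 1203 of 1242 UMIs, and without the top cells to 10.5 against 9.92 CPM, with Ltf, Camp and Mmp8 at 0, and those of mast cells or basophils to 65.7 against 41.95 CPM, with Prss34, Ms4a2 and Fcer1a at 0. Erythroid markers without globins summed to 29.2 against 50.6 CPM, or 13.6 against 46.6 without the top cells, with Ermap, Rhd and Slc4a1 among those at 0, and endothelial markers to 51.1 against 72.0 CPM, with Cdh5 and Kdr at 0. The 4 stromal markers were at 0 UMIs in both groups. The part of these markers in other results was not tested beyond the values without those cells.

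Levels followed the number of Cd48 UMIs in the cell for several of these genes. Cd34 stood at 287 CPM (271 to 304) in cells with 0 Cd48 UMIs, 383 (354 to 414) with 1, 420 (372 to 472) with 2 and 524 (445 to 613) with 3 or more. Apoe ran the other way, at 996, 785, 687 and 394 CPM in the same order, and Nr4a1 stood at 769.6, 659.5, 555 and 450.5 CPM. Socs2 stood at 224, 268, 296 and 417 CPM. Mpo stood at 25.9, 120, 89.5 and 133 CPM, and the cells with 1 Cd48 UMI had 196 Mpo UMIs in 69 of 544 cells (12.7%, between 6.25% and 20.3% in the groups beside them). The cells just outside the threshold therefore lay between the groups for Cd34, Apoe, Nr4a1 and Socs2, and by the share of cells with a UMI for Mpo. In male cells Cd34 stood at 298, 431, 436 and 605 CPM, Apoe at 940.2, 693, 653 and 447 CPM, and Mpo at 28.5, 72.5, 116 and 124 CPM. The HSC markers together stood at 561, 422, 352 and 367 CPM and the progenitor markers at 499, 618, 675 and 808 CPM. Cells with more Cd48 UMIs also had higher depth before thinning, with medians of 8701, 9242, 9800 and 11060 UMIs.

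**Figure D4:**
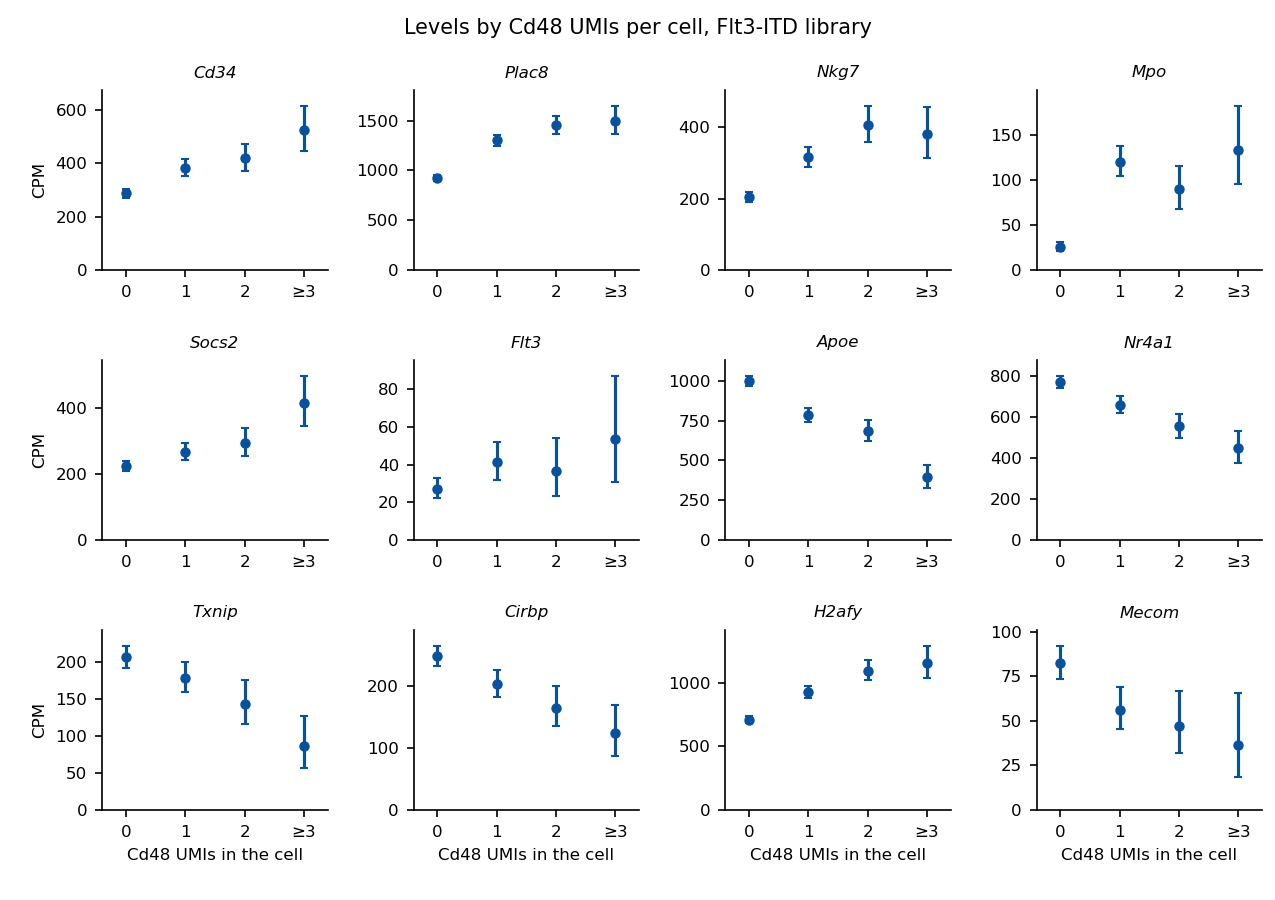
CPM of 12 genes in Flt3-ITD cells grouped by Cd48 UMIs per cell at 3000 UMIs (0, 1, 2, and 3 or more), with exact 95% counting intervals and axes from 0. Cd34 goes from 287 to 524 CPM across the groups and Apoe from 996 to 394.

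The same split was made in the other libraries, each against its own 0-UMI cells, with no test of the differences between libraries. In NPMc+, 40 of 1666 genes (2.40%) were at least 1.5-fold higher and 38 (2.28%) lower. Of the 16 genes higher in Flt3-ITD, 6 were among the 40 (37.5% of the Flt3-ITD list and 15% of the NPMc+ list), and of the 21 lower genes 7 were among the 38 (33.3% and 18.4%). In NPMc+/Flt3-ITD, 38 of 1933 genes (1.97%) were higher and 82 (4.24%) lower, and 4 and 5 of the Flt3-ITD genes were among them (25% and 23.8% of the Flt3-ITD lists, 10.5% and 6.10% of the others). In Mx, with 34 Cd48-expressing cells, 219 of 1752 genes (12.5%) were higher and 140 (7.99%) lower. Of the Flt3-ITD genes 10 and 11 were among them (62.5% and 52.4% of the Flt3-ITD lists, 4.57% and 7.86% of the Mx lists). Not all of the 16 higher and 21 lower Flt3-ITD genes reached the floor in the other libraries. In NPMc+ 10 and 14 did, of which 10 and 13 lay on the same side of 1. In the double mutant 15 and 9 did, of which 11 and 9 lay on the same side. In Mx 10 and 17 did, of which 10 and 14 lay on the same side.

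Cd34 was higher and Pdzk1ip1 and Trim47 lower in the Cd48-expressing cells of every library. In the order Mx, NPMc+, Flt3-ITD and the double mutant, the Cd34 ratios were 2.25, 2.17, 1.58 and 1.66 and the Pdzk1ip1 ratios 0.398, 0.569, 0.551 and 0.512. For Trim47 they were 0.161, 0.186, 0.327 and 0.434. Pdzk1ip1 and Trim47 lay below the floor in the double mutant, and the Mx ratios rest on 34 Cd48-expressing cells. Whole lists did not keep their direction. The summed LT-HSC list had ratios of 0.685, 0.648, 0.842 and 1.58 in that order, with a median log2 ratio of -0.03 in the double mutant. The summed multipotent and lymphoid list had ratios of 1.21, 1.22, 1.16 and 0.787. Procr had ratios of 0.243, 0.197, 0.588 and 0.934, the last with an interval of 0.714 to 1.23. Its level in the 0-UMI cells was 121, 129, 63.8 and 37.5 CPM in that order, so the comparison cells of the libraries were themselves unlike. Socs2 had a ratio of 1.49 in Flt3-ITD and 1.495 in the double mutant, where 0-UMI cells held 224 and 413 CPM. In NPMc+ it had a ratio of 0.199, where 0-UMI cells held 53.3 CPM and Cd48-expressing cells 10.6, both below the floor of 100 CPM. Nr4a1 stood at 769.6 CPM in the 0-UMI cells of Flt3-ITD, against 48.6 CPM in those of Mx, 189.7 in NPMc+ and 130.9 in the double mutant.

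**Figure D5:**
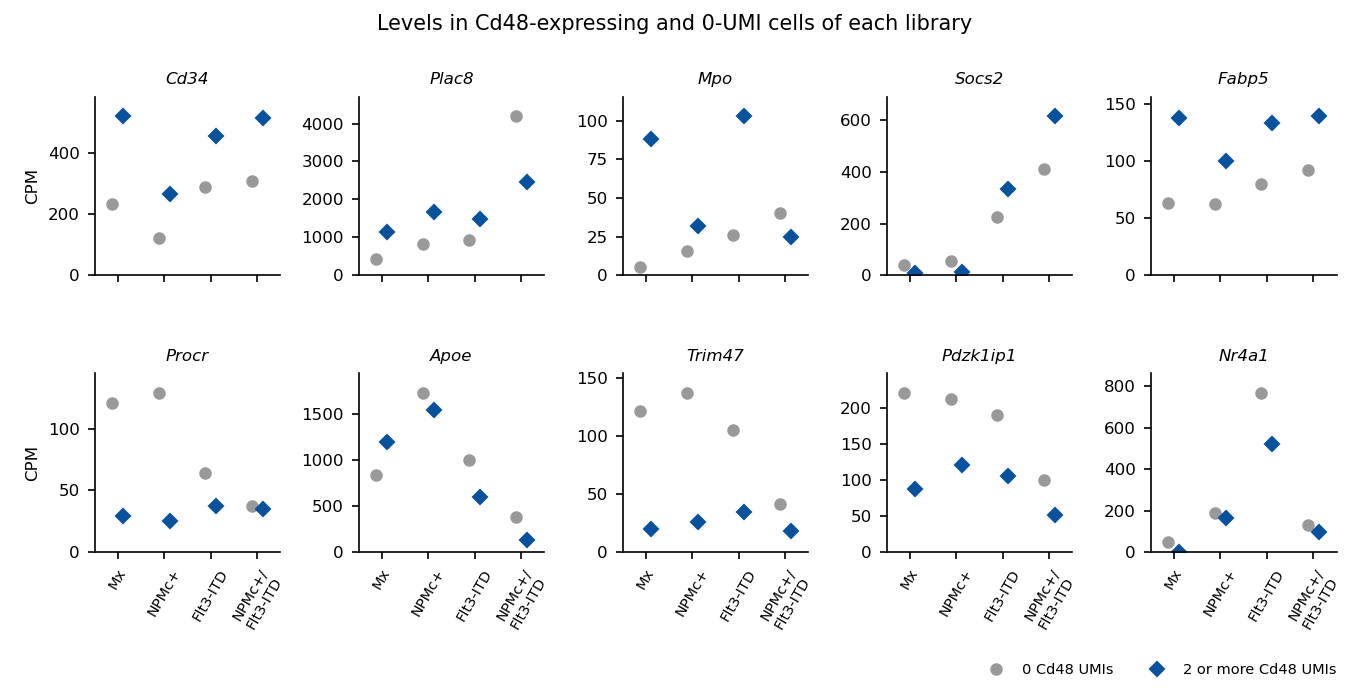
CPM of 10 genes in 0-UMI cells (grey circles) and in cells with 2 or more Cd48 UMIs (blue diamonds) of each library, axes from 0; there is 1 library per genotype. Cd34 is higher and Trim47 and Pdzk1ip1 are lower in the Cd48-expressing cells of all 4 libraries, while Plac8 is lower in those of NPMc+/Flt3-ITD (2465 against 4206 CPM).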

How the data were processed

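The deposited tables held UMI counts per gene and barcode for 4 libraries, and the submitters' processing notes name STARsolo, STAR 2.7.0c and mm10 for the work of the authors on these counts. They held whole numbers only, with at least 101 UMIs per barcode over 11407 barcodes, and the Flt3-ITD table held 22076194 UMIs in 2677 barcodes. Barcodes under 3000 UMIs or 500 genes, or over 10% mitochondrial UMIs, were dropped, and each kept cell was thinned to 3000 UMIs without replacement.

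UMIs were summed over the cells of a group and divided by the group's total without Cd48 (CPM). Ratios of sums carry exact conditional binomial 95% intervals (Clopper-Pearson) and shares exact binomial ones. Genes were compared from 100 CPM in either group and counted from 1.5-fold. A sum of 0 was set to 3 counts. No p-value was computed. The procedure was tested on simulated data: of 200 genes changed 2-fold among 1501, all of those raised (100%) and 99% of those lowered were recovered. The simulated counts had no spread between cells, and the changes were larger than the 1.5-fold used for counting. The test therefore does not cover differences near 1.5-fold or ratios set by single cells.

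Named genes were the 12 genes furthest above and the 12 furthest below 1 by the interval bound nearest to 1 (without clone names, mitochondrial, ribosomal protein, immunoglobulin, T cell receptor and sex-linked marker genes), the 3 furthest genes of each of 28 lists, and a set of stem cell, cell cycle and SLAM genes. Outside that rule, and picked with their values in view, are Lat2, Rpn1, Akr1c13, Pik3ip1, Lst1, Dntt, Ctsg, Prtn3, Elane, Ms4a3, Nr4a2, Klf4, Fos, Atf3, Mcm3, Mcm5, Dusp2, Pim1, Igha and Xist. The members and the gene lists were chosen with earlier results of these data known. Some genes are not reported here. No doublet caller was run; cells of very high UMIs and cells with UMIs of both sexes were left out as alternatives. Of 26687 symbols, 95.2% were found in GENCODE release 21 of the mouse (M21), which gave coordinates on mm10. In all, 17 alternatives were planned and 2 added after the data had been seen, as were marker sums without the top cells and male-only bands and graded levels. Calculations used Python 3.11.15, numpy 2.4.6, scipy 1.17.1 and pandas 2.3.3, and edgeR 4.0.16 for TMM factors only.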

Additional observations from a re-analysis of the deposited data

Results flagged for a closer look

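Plac8 and Ccl5 passed 1.5-fold in opposite directions in the libraries with Flt3-ITD. For Plac8, Cd48-expressing cells of Flt3-ITD had a ratio to 0-UMI cells of 1.598 (1.502 to 1.70), and those of the double mutant one of 0.586 (0.570 to 0.602), where the 0-UMI cells stood at 4206 CPM. The Ccl5 ratios were 7.71 and 0.306 in the same order, and 1 cell held 102 of the 111 Ccl5 UMIs of the Cd48-expressing Flt3-ITD cells. Cdk6 (1.52 and 0.777) and Cd69 (1.63 and 0.934) also lay on opposite sides of 1. So did Mpo (3.98 and 0.618), which lay below the floor in the double mutant. An Mpo UMI was nevertheless found there in 5.79% of the Cd48-expressing and 3.49% of the 0-UMI cells. With 1 library per genotype these differences between libraries were not tested.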

How the results depend on the processing

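Counts of genes past the fold moved with the threshold, the floor and the cells compared. The 16 higher and 21 lower genes became 2 (0.124%) and 5 (0.309%) at 2-fold, 6 and 6 with a floor of 200 CPM, 55 and 66 with a floor of 50 CPM, 77 and 67 with at least 3 Cd48 UMIs (100 cells), 188 and 122 in female cells, and 30 and 41 with mitochondrial and ribosomal protein genes left out of the totals. The higher count alone moved to 8 against cells of 0 or 1 Cd48 UMI and to 30 without cells with UMIs of mitotic genes. The share of Cd48-expressing cells, 14.7%, was 19.5% in male cells, 6.24% in female cells and 4.598% with at least 3 UMIs. Ccl5 changed sides of 1 in female cells (0.485), with at least 3 UMIs (0.890) and pooled over the strata of sex (0.866). Igha did so without other lineages (1.23). The cause was not tested. S100a8 had a ratio of 4.13 without the 1% of cells that held most of its UMIs. Its only UMI in the Cd48-expressing cells lay in 1 cell. Without that cell their sum was 0 and was set to 3 counts, so the 4.13 is not a measured rise. Of 1635 values of named genes under the alternatives 1455 stayed within the counting interval of the main value. In all, 75 values of 32 genes lay on the other side of 1, 4 of them of genes past 1.5-fold (the Ccl5 and S100a8 values above). Of 432 list medians 417 stayed. Leaving out cells with 3 or more G2/M UMIs gave no value, since all 2175 cells held that many. No paired analysis was possible because each genotype had 1 library. Genes below 100 CPM were read with few UMIs, and no variation between animals could be estimated.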
